A study of Mus musculus with 10 samples.

Results

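The genes described here take up glucose, split it to pyruvate and decide what becomes of the pyruvate, in mouse regulatory T cells (Treg cells) sorted by a reporter of Helios. The members were a fixed list of 10 gene symbols, Pdk1, Slc2a1, Slc2a3, Hk1, Hk2, Eno1, Eno3, Ldha, Ldhb and Slc16a3, matched to the gene column of the table of normalized counts. Of these, 9 had a row among 13252 genes, and Eno1 is not analysed here. All 9 passed the filter on low values (an average of 10 or more normalized counts across libraries), although Slc16a3 lay under that level in the Helios− group alone. Both groups were sorted as CD4+RFP+, and GFP divided them into a Helios+ group (GFP+) and a Helios− group (GFP−), with 5 libraries of total RNA in each. The labels tie GFP to Helios, the product of Ikzf2, and give no meaning for RFP, no strain and no age. The series' design text speaks of wild-type against knockout cells, whereas the samples are labelled as sorted populations, so differences are given as differences between these populations. Nothing in the labels says whether the libraries of a group came from separate mice, so the tests reflect variation among these libraries, which may be technical.

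Glucose enters T cells through the transporters encoded by Slc2a1 (GLUT1) and Slc2a3 (GLUT3), is phosphorylated by hexokinases and is turned into pyruvate through a chain of enzymes that includes enolase. Lactate dehydrogenase converts pyruvate to lactate, which leaves through monocarboxylate transporters. Inside the mitochondria, pyruvate dehydrogenase instead converts pyruvate to acetyl-CoA. Pyruvate dehydrogenase kinases, among them Pdk1, phosphorylate pyruvate dehydrogenase and restrain that conversion. Glycolysis is known in Treg cells for its link to activation and migration, and Foxp3 is known to favour oxidative metabolism over it.

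Recovered reads ranged from 4872348 to 6948692 per library, and the ribosomal RNA precursor Rn45s held 8.54% to 18.6% of them. Ikzf2 lay between 418.2 and 572.2 normalized counts in Helios− libraries and between 9667 and 10906 in Helios+ libraries, so every library matched its label. The defining markers Foxp3 and Cd4 were high in every library, with lowest values of 3284 and 2860 normalized counts. Neither was found to differ between the groups (exact permutation p = 0.754 for Foxp3 and 0.667 for Cd4). Of the 6 Treg markers limma called 2 higher in Helios+ cells, against 14.1% of all genes tested. These were Il2ra, by 0.25 ± 0.08 (limma adjusted p = 0.0249), and Ctla4, by 0.58 ± 0.18 on the log2 scale (limma adjusted p = 0.0322). A fit with the replicate number as a block called 4 of the 6 higher, against 18.9% of all genes tested. Markers of other cells were present at lower levels in both groups. The sum of 6 B cell markers was 1239 to 1716 normalized counts in Helios− and 1124 to 1526 in Helios+ libraries, that of 8 macrophage and monocyte markers 203 to 348 and 276 to 543, and that of 6 markers of CD8 T and NK cells 460.4 to 561.4 and 434 to 505. The sums were 57.4 to 95.02 and 81.2 to 101 for 5 dendritic cell markers, and 23.3 to 111 and 32.6 to 106 for 3 neutrophil markers. Of these markers, limma called Csf1r (36.9 ± 5.84 and 61.6 ± 7.30 normalized counts, SD, n = 5) and Zbtb46 higher in Helios+ cells. The part of such cells in the results on the glycolysis genes was not tested.

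The glycolysis genes moved in both directions. Among the 9 members limma called 4 higher in Helios+ cells, namely Slc16a3, Eno3, Hk2 and Ldhb, and 2 lower, Pdk1 and Slc2a1, at an adjusted p under 0.05. Slc16a3 passed the filter through its Helios+ values alone. Over all 10718 genes tested, 14.1% were called higher and 10.7% lower, or 24.8% in either direction. Libraries of the groups did not overlap for 5 of the 9 members, against 19.5% of all genes tested. The members were chosen with earlier results of these data known, so these shares describe the list and are no test of it. A log2 change here is the Helios+ mean of log2(normalized count + 1) less the Helios− mean, so the added 1 shrinks the changes of low genes. Its median over all genes tested was −0.02. In these bulk libraries, a larger share of cells with a transcript and more transcript per cell cannot be told apart.

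**Figure D1:**
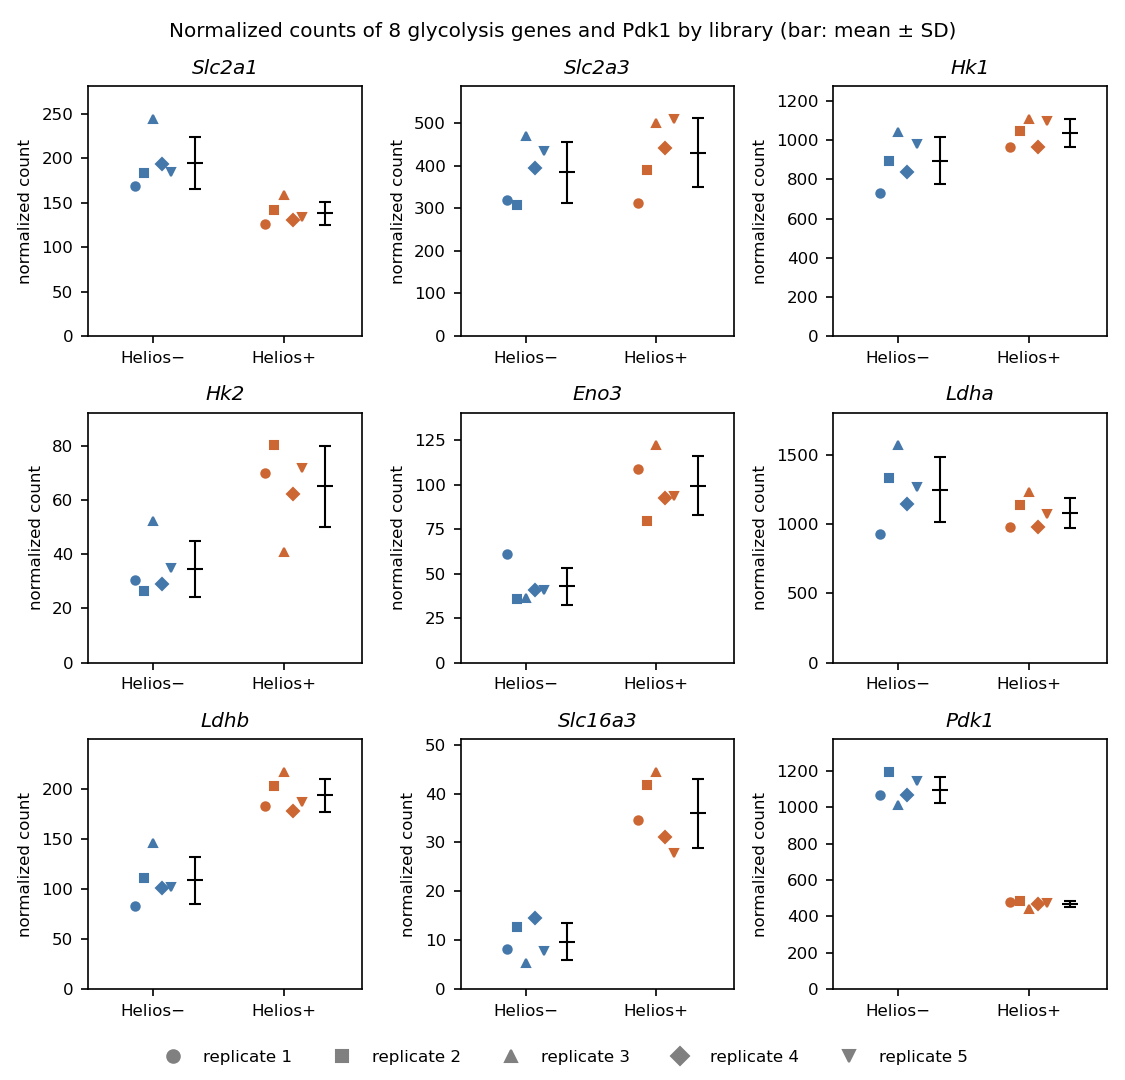
Normalized counts (vertical axis, linear from 0) of the 9 members in each library, with a symbol for each replicate number. Bars give group means and SDs over 5 libraries. Pdk1 and Slc2a1 sit lower and Ldhb, Eno3 and Slc16a3 higher in all Helios+ libraries, while the groups overlap for Slc2a3, Hk1, Hk2 and Ldha.

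At the step of glucose uptake, Slc2a1 was lower in Helios+ cells and Slc2a3 was not called. Slc2a1 (ENSMUSG00000028645.11, chromosome 4, 119108711 to 119137983, plus strand) encodes the transporter that T cells raise on activation. Its normalized counts in replicates 1 to 5 were 169, 183, 245, 194 and 185 in Helios− cells and 126, 142, 159, 130.2 and 134 in Helios+ cells. The lowest Helios− library was above the highest Helios+ library, and Helios− replicate 3 stood above the others of its group. Slc2a1 thus differed by −0.49 ± 0.11 on the log2 scale (SE, 95% interval −0.72 to −0.25; limma adjusted p = 0.00383). Slc2a3 (ENSMUSG00000003153.10, chromosome 6, 122727809 to 122801640, minus strand), the high-affinity transporter, had 319, 307, 469.7, 394 and 436 normalized counts in Helios− and 312, 391, 500.0, 442 and 511 in Helios+ libraries. These ranges overlapped almost fully. For Slc2a3 the log2 change was 0.16 ± 0.15 (95% interval −0.15 to 0.48; limma adjusted p = 0.479). Of the 4 uptake genes tested, limma called 1, which was lower, against 24.8% of all genes tested in either direction. It called 0 of the 4 higher (0 higher at an unadjusted p under 0.05 and with edgeR and DESeq2). The other members of that list, Slc2a6 and Slc2a8, had group means of 8.78 and 14.7 and of 13.9 and 18.6 normalized counts and were not called. Without Helios− replicate 1, limma called Slc2a6 higher (adjusted p = 0.0342).

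The balance of the transporters, taken within each library, differed between the groups, as Slc2a1 by itself already did. The ratio of Slc2a3 to Slc2a1 normalized counts was 1.68 to 2.36 in Helios− libraries and 2.48 to 3.80 in Helios+ libraries, with no overlap. On the log2 scale the ratio was higher in Helios+ cells by 0.65 ± 0.13 (SE; exact two-sided permutation p = 0.0079, the smallest that 5 libraries against 5 allow, or 0.0099 adjusted over the 5 ratios computed). Per kilobase of exon, Slc2a1 made up 51.3% ± 3.10 (SD, n = 5) of the summed level of both genes in Helios− and 40.2% ± 4.04 (SD, n = 5) in Helios+ libraries. This share uses all annotated exon bases of a gene as its length, so it shifts if the cells use shorter transcripts.

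Hexokinases, which trap glucose in the cell as glucose 6-phosphate, were mostly Hk1 per kilobase in both populations, and the minor form Hk2 was higher in Helios+ cells. Hk2 (ENSMUSG00000000628.10, chromosome 6, 82725025 to 82774454, minus strand) had 30.5, 26.5, 52.4, 29.1 and 35.0 normalized counts in Helios− replicates 1 to 5. The Helios+ libraries had 70.2, 80.3, 41.0, 62.2 and 71.9. Replicate 3 went against the other pairs, with the highest Hk2 value among Helios− and the lowest among Helios+ libraries, so the groups overlapped. Hk2 rose by 0.90 ± 0.21 on the log2 scale (limma adjusted p = 0.00558), measured from 25 to 96 recovered reads per library. Hk1 (ENSMUSG00000037012.18, chromosome 10, 62268855 to 62379908, minus strand) had 729, 893, 1042, 841 and 980.0 normalized counts in Helios− and 967, 1047, 1111, 964 and 1096 in Helios+ libraries. In 5 of 5 pairs of equal replicate number the Helios+ library had the higher value, on average by 0.22 ± 0.09 on the log2 scale (limma adjusted p = 0.0918). When replicate number entered limma as a block, Hk1 was called higher (adjusted p = 0.00224), and that fit called 18.9% of all genes higher and 18.5% lower. Limma also called Hk1 higher without Helios− replicate 3 (adjusted p = 0.0225) and after quantile normalization (adjusted p = 0.0301).

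The ratio of Hk1 to Hk2 normalized counts was 19.9 to 33.8 in Helios− libraries. It was 13.0 to 15.5 in 4 Helios+ libraries and 27.1 in Helios+ replicate 3. The log2 ratio was lower in Helios+ cells, with a difference of −0.68 ± 0.22 (SE; exact two-sided permutation p = 0.0238, and 0.0238 adjusted over the 5 ratios). Tested within the 5 pairs of equal replicate number, by flipping signs, the exact p was 0.125. The smallest p possible in that test is 0.0625, so it could call no ratio. Leaving out Helios+ replicate 1, 2, 4 or 5 singly gave an exact permutation p of 0.0556 each. Per kilobase of exon, Hk2 was 5.20% ± 1.01 (SD, n = 5) of the sum of both in Helios− and 8.26% ± 1.91 (SD, n = 5) in Helios+ libraries.

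The other enzymes of the upper pathway were called at about the rate of all genes in the fit on group alone. Of 13 genes tested from hexokinase to triose phosphate isomerase, limma called 3 higher, Hk2 among them, and 1 lower, so 4 of 13 against 24.8% of all genes tested. With the replicate block limma called 4 higher and 3 lower, where it called 37.3% of all genes tested in either direction. Without single libraries it called 2 to 5 higher and 0 to 3 lower. The median log2 change of the list was 0.08. Tpi1, triose phosphate isomerase, rose from 73.7 ± 17.4 to 126 ± 10.1 normalized counts (SD, n = 5), or by 0.79 ± 0.15 on the log2 scale (limma adjusted p = 0.000827). The enzymes that set the level of fructose 2,6-bisphosphate, an activator of phosphofructokinase, differed in direction. Pfkfb3 changed by 0.21 ± 0.07 (limma adjusted p = 0.031) and Pfkfb2 by −0.54 ± 0.18 (limma adjusted p = 0.0333). The call of Pfkfb3 was lost without any single one of Helios− replicates 2 and 4 and Helios+ replicates 1, 3 and 5 (limma adjusted p up to 0.0847). The call of Pfkfb2 was lost without any single one of Helios− replicates 1, 2 and 4 and Helios+ replicates 1, 2, 3 and 5 (limma adjusted p up to 0.0857). Of the exon bases of Pfkfb2, 19.5% overlap other genes, 17.4% on the same strand. The abundant Gpi1 and Aldoa were not called, at log2 changes of 0.08 ± 0.12 and 0.13 ± 0.14.

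**Figure D2:**
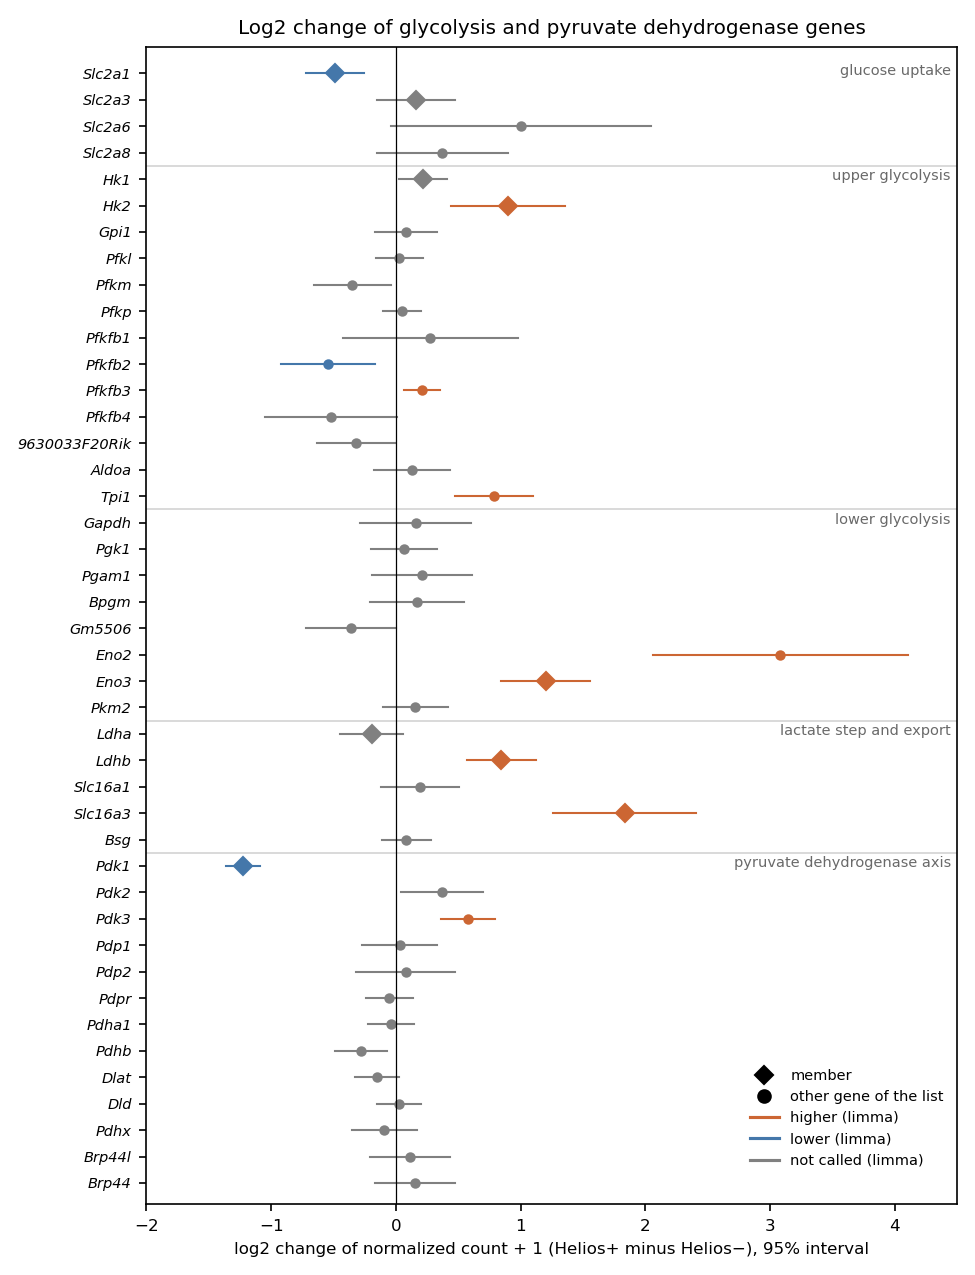
Log2 change of normalized count + 1 (horizontal axis, Helios+ minus Helios−) with its 95% interval for each tested gene of the uptake, upper and lower glycolysis, lactate and pyruvate dehydrogenase lists. Diamonds are the 9 members and circles the other genes, coloured by limma call, and older symbols stand for Tigar (9630033F20Rik), Eno1b (Gm5506), Mpc1 (Brp44l) and Mpc2 (Brp44). Pdk1, at −1.22, lies farthest to the left, and Eno2, Slc16a3 and Eno3 lie farthest to the right.

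Among enolases, which make phosphoenolpyruvate, Eno3 was higher in Helios+ cells. Eno3 (ENSMUSG00000060600.15, chromosome 11, 70657202 to 70662513, plus strand), the form known from muscle, had 60.9, 36.0, 36.0, 41.0 and 40.9 normalized counts in Helios− and 109, 79.5, 122, 92.3 and 93.9 in Helios+ libraries. The groups did not overlap, and Helios− replicate 1 stood above the rest of its group. The means differed 2.31-fold, and Eno3 rose by 1.20 ± 0.17 on the log2 scale (SE, 95% interval 0.85 to 1.56; limma adjusted p = 5.94e-05). Eno2, the form known from neurons, was barely detected in Helios− libraries, at 1.17, 5.29, 1.09, 0 and 0.973 normalized counts. In Helios+ libraries Eno2 had 25.1, 16.7, 9.40, 17.5 and 26.7, and limma called it higher (adjusted p = 0.000177). It passed the filter through the Helios+ group alone, and without Helios+ replicate 1, 2, 4 or 5 it fell under the filter and was not tested. Gm5506 (Eno1b), a near-identical copy of another enolase gene whose count is therefore uncertain, had 66.7 ± 16.6 and 50.4 ± 2.49 normalized counts (SD, n = 5), a log2 change of −0.36 ± 0.17 (limma adjusted p = 0.139). Without Helios− replicate 4 limma called it lower (adjusted p = 0.0349). Of 8 lower pathway genes tested, limma called 2, Eno2 and Eno3, both higher, against 24.8% of all genes tested in either direction. It called 0 of the 8 lower (1 lower at an unadjusted p under 0.05, and 0 with edgeR and DESeq2). The most abundant of them, Pkm2, the table's name for the pyruvate kinase gene Pkm, had 1701 ± 372 and 1864 ± 123 normalized counts, a log2 change of 0.16 ± 0.12. Limma called Pkm2 higher without Helios− replicate 3 (adjusted p = 0.0431). A gene on the same strand shares 15.3% of the exon bases of Pkm2. For Pgk1 the log2 change was 0.07 ± 0.12, and pseudogene copies make its count uncertain.

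Lactate dehydrogenase is a tetramer of the A subunit, known for turning pyruvate to lactate, and the B subunit, known for favouring the reverse reaction. Ldhb was higher in Helios+ cells, while Ldha was not called in the fit of all libraries on group alone but was called lower with the replicate block. Ldhb (ENSMUSG00000030246.11, chromosome 6, 142490249 to 142507957, minus strand) had 83.2, 111, 146, 101 and 102 normalized counts in Helios− and 183, 203, 217, 178 and 187 in Helios+ libraries. All Helios+ libraries were above all Helios− libraries. Ldhb rose by 0.85 ± 0.13 on the log2 scale (SE, 95% interval 0.57 to 1.13; limma adjusted p = 0.000163).

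Ldha (ENSMUSG00000063229.15, chromosome 7, 46841475 to 46855627, plus strand) had 930.1, 1334, 1572, 1148 and 1272 normalized counts in Helios− and 979.8, 1141, 1231, 979 and 1076 in Helios+ libraries. It was lower in Helios+ cells in 4 of the 5 pairs, replicate 1 being the exception. Its log2 change was −0.19 ± 0.12 (95% interval −0.44 to 0.05; limma adjusted p = 0.256). In the fit with the block it was called lower (limma adjusted p = 0.00779), as it was without Helios− replicate 1 (limma adjusted p = 0.0202). Reads of Ldha may be shared with its pseudogene copies, so its count is uncertain to that extent.

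The proportion of the subunit transcripts separated the groups more cleanly than Ldha did. The ratio of Ldhb to Ldha normalized counts was 0.0894, 0.0833, 0.0931, 0.0879 and 0.0803 in Helios− libraries and 0.187, 0.178, 0.176, 0.182 and 0.173 in Helios+ libraries. These ratios averaged 0.0868 ± 0.00504 and 0.179 ± 0.00525 (SD, n = 5), so within a group they varied less than the counts of Ldha or Ldhb did. Its log2 value was higher in Helios+ cells by 1.04 ± 0.04 (SE; exact two-sided permutation p = 0.0079, the smallest possible, or 0.0099 adjusted over the 5 ratios). Per kilobase of exon, Ldhb was 15.5% ± 0.760 (SD, n = 5) of the sum of both subunits in Helios− and 27.4% ± 0.581 (SD, n = 5) in Helios+ libraries. The sum itself was 447 ± 85.8 normalized counts per kilobase in Helios− and 450.0 ± 42.7 in Helios+ libraries (SD, n = 5).

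Slc16a3 encodes MCT4, the monocarboxylate transporter known for lactate export from strongly glycolytic cells, and had the largest increase of the 9 members. Slc16a3 (ENSMUSG00000025161.16, chromosome 11, 120948480 to 120960868, plus strand) had 8.20, 12.7, 5.46, 14.5 and 7.79 normalized counts in Helios− and 34.6, 41.8, 44.4, 31.1 and 27.8 in Helios+ libraries. The groups did not overlap, but the gene was low, with 5 to 52 recovered reads per library. Its mean in Helios− libraries was 9.74, under the filter, so it was tested only through its Helios+ values. Slc16a3 rose by 1.83 ± 0.27 on the log2 scale (SE, 95% interval 1.26 to 2.41; limma adjusted p = 0.000102), and its means differed 3.69-fold.

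The related transporter Slc16a1 (MCT1) was the more abundant of the pair per kilobase of exon in both groups. It had 138 ± 30.6 and 156 ± 19.4 normalized counts (SD, n = 5), and a log2 change of 0.20 ± 0.15 (adjusted p = 0.379 with limma). The ratio of Slc16a3 to Slc16a1 normalized counts was 0.0321 to 0.118 in Helios− and 0.167 to 0.316 in Helios+ libraries. The log2 ratio differed by 1.64 ± 0.36 (SE; exact two-sided permutation p = 0.0079, or 0.0099 adjusted over the 5 ratios). Slc16a3, which passed the filter through its Helios+ values alone, had already separated the groups by itself. This ratio thus mostly repeats the difference in Slc16a3. Slc16a3 was 5.85% ± 2.61 and 16.3% ± 3.46 (SD, n = 5) of the sum of both per kilobase. Bsg, the chaperone that brings both transporters to the cell surface, was not called, at a log2 change of 0.08 ± 0.09. Of 5 genes tested at the lactate step, limma called 2, both higher, against 24.8% of all genes tested in either direction. It called 0 lower (0 lower at an unadjusted p under 0.05 and with edgeR and DESeq2), and with the replicate block 1 lower, which was Ldha. In the fit with that block 18.5% of all genes tested were called lower.

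**Figure D3:**
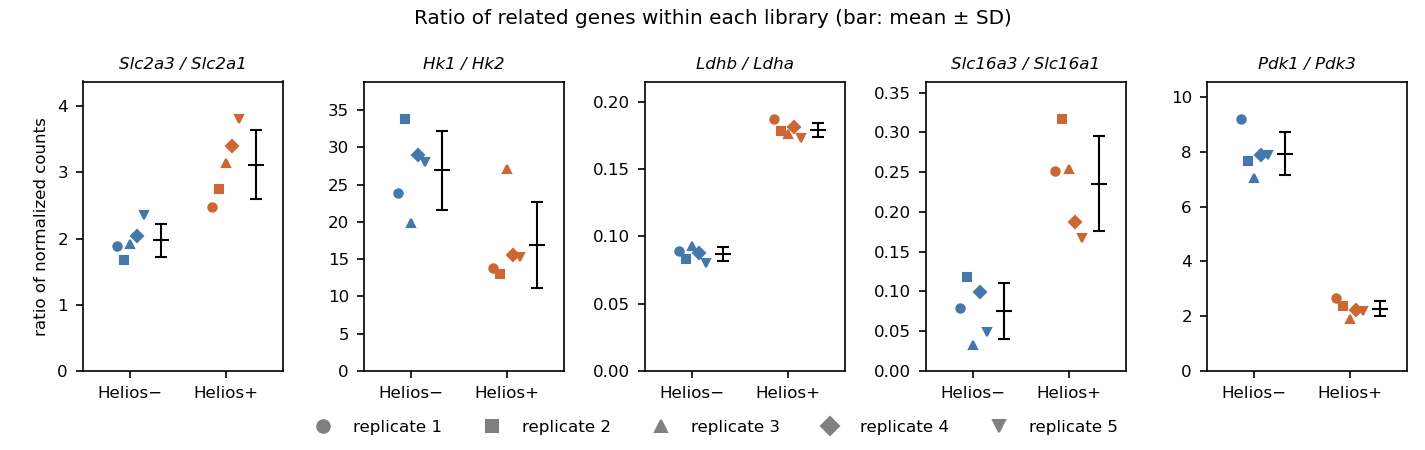
Ratio of normalized counts of related genes within each library (vertical axes, linear from 0), with a symbol for each replicate number. Bars give group means and SDs over 5 libraries, and the groups do not overlap except for Hk1 over Hk2, where Helios+ replicate 3, at 27.1, lies among the Helios− libraries.

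Pdk1 had the largest and most uniform decrease of the 9 members. Pdk1 (ENSMUSG00000006494.11, chromosome 2, 71873224 to 71903858, plus strand) had 1066, 1195, 1014, 1069.7 and 1144 normalized counts in Helios− and 479, 485, 440.1, 468 and 474 in Helios+ libraries. The coefficient of variation was 6.51% among Helios− and 3.72% among Helios+ libraries, the smallest of the 9 members in each group. Pdk1 thus differed by −1.22 ± 0.06 on the log2 scale (SE, 95% interval −1.36 to −1.09; limma adjusted p = 2.12e-09). Differences within the 5 pairs of equal replicate number ran from −1.30 to −1.15. Only 0.728% of the genes tested had a change as low or lower, and Pdk1 had rank 30 by p. Exons of Pdk1 overlapped no other annotated gene, whereas 2.99% of the exon bases of Slc2a1 and 1.84% of those of Hk1 did.

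The related kinase Pdk3 went the other way. It had 116, 156, 144, 136 and 145 normalized counts in Helios− and 179, 205, 231, 209 and 218 in Helios+ libraries, without overlap, and rose by 0.58 ± 0.10 on the log2 scale (limma adjusted p = 0.000516). The ratio of Pdk1 to Pdk3 normalized counts was 7.03 to 9.19 in Helios− and 1.91 to 2.67 in Helios+ libraries. The log2 ratio was lower in Helios+ cells, with a difference of −1.80 ± 0.10 (SE; exact two-sided permutation p = 0.0079, or 0.0099 adjusted over the 5 ratios). Since Pdk1 and Pdk3 each separated the groups, in opposite directions, this ratio had to separate them too. Its p is therefore no further test of either gene. Per kilobase of exon, Pdk1 made up 66.4% ± 1.96 (SD, n = 5) of the summed level of Pdk1, Pdk2 and Pdk3 in Helios− libraries and Pdk3 25.6% ± 1.77. In Helios+ libraries Pdk1 made up 36.9% ± 2.24 and Pdk3 49.6% ± 3.47 (SD, n = 5). The summed level of the kinases was 212 ± 13.3 normalized counts per kilobase in Helios− and 164 ± 7.03 in Helios+ libraries, with ranges of 199.7 to 230.4 and 152 to 171 that did not overlap. Pdk4 is not analysed here.

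Of 13 genes of the pyruvate dehydrogenase axis tested, which include the subunits, kinases, phosphatases and mitochondrial pyruvate carriers, limma called Pdk3 higher and Pdk1 lower. Over all genes tested it called 14.1% higher and 10.7% lower. The subunit gene Pdhb, chosen after its values were seen, lay at the threshold, with 182 ± 15.5 and 150.4 ± 14.4 normalized counts (SD, n = 5) that did not overlap between groups and a log2 change of −0.28 ± 0.10 (limma adjusted p = 0.05001). Limma called it lower with the replicate block (adjusted p = 0.0186), without Helios− replicate 3 (adjusted p = 0.0345) and without Helios+ replicate 1 (adjusted p = 0.0466). Pdha1, the subunit that carries the phosphorylation sites, and Dld had log2 changes of −0.04 ± 0.09 and 0.02 ± 0.08. In the tricarboxylic acid cycle, which burns the product of the complex, limma called 0 of 17 genes in either direction (0 at an unadjusted p under 0.05, and 0 with edgeR and DESeq2). Log2 changes of its most abundant genes, Sdha and Ogdh, were −0.03 ± 0.08 and −0.14 ± 0.08. In the pentose phosphate pathway, which branches off after hexokinase, limma called 0 of 8 genes (1 higher and 1 lower at an unadjusted p under 0.05, and 0 with edgeR and DESeq2). Tkt, transketolase, had a log2 change of 0.28 ± 0.11 (limma adjusted p = 0.0885). Limma called it higher with the block (adjusted p = 0.00197), without Helios− replicate 3 (adjusted p = 0.0163) and after quantile normalization (adjusted p = 0.0472). For Taldo1 the log2 change was −0.01 ± 0.12.

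HIF-1 is a dimer of the oxygen-sensitive alpha subunit encoded by Hif1a and a stable partner, and Pdk1, Slc2a1, Hk2, Ldha and Slc16a3 are known targets of it. Hif1a had 1232, 1465, 1426, 1378 and 1565 normalized counts in Helios− and 2162, 2599, 2259, 2469 and 2308 in Helios+ libraries. Every Helios+ library was above every Helios− library, and Hif1a rose by 0.74 ± 0.07 on the log2 scale (limma adjusted p = 2.21e-06). The amount of HIF-1 protein is set largely by degradation and was not measured. Of 23 regulators tested, limma called Hif1a higher and 4 lower, or 5 of 23 against 24.8% of all genes tested, and the list's median log2 change was −0.07. Without single libraries 2 to 5 regulators were called lower.

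Those lower were Rictor, a subunit of mTOR complex 2, at −0.34 ± 0.08 on the log2 scale (limma adjusted p = 0.00349), Prkaa1, a catalytic subunit of AMPK, with −0.30 ± 0.08 (limma adjusted p = 0.00766), and Epas1 and Foxo1. Epas1, which encodes HIF-2 alpha, changed by −0.96 ± 0.29 (limma adjusted p = 0.0232), and its call was lost without any single one of Helios− replicates 2 and 5 and Helios+ replicates 1 and 3 (limma adjusted p up to 0.0639). Foxo1, a transcription factor of quiescence that AKT inactivates, changed by −0.34 ± 0.11 (limma adjusted p = 0.0288, chosen after its values were seen). The call of Foxo1 was lost without any single one of Helios− replicates 3, 4 and 5 and Helios+ replicates 1 and 2 (limma adjusted p up to 0.0777). Txnip, an inhibitor of glucose uptake, varied widely, from 2787 to 7155 normalized counts in Helios− and from 1912 to 4623 in Helios+ libraries. Limma called it lower with the replicate block (adjusted p = 2.01e-09) and without Helios+ replicate 2 (adjusted p = 0.0475), but not otherwise (adjusted p = 0.244).

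Of 13 other known targets of HIF-1 tested, limma called 3 higher and 1 lower, or 4 of 13 against 24.8% of all genes tested, with a list median of 0.09. Bhlhe40, a transcriptional repressor that T cell activation also induces, rose from 53.1 ± 11.5 to 260.4 ± 36.2 normalized counts (SD, n = 5), by 2.29 ± 0.15 (limma adjusted p = 2.63e-08). Ndrg1 rose by 1.13 ± 0.16 (limma adjusted p = 6.59e-05) and Fam162a by 0.54 ± 0.12 (limma adjusted p = 0.00363). Of the exon bases of Fam162a, 19.8% overlap a gene on the opposite strand. P4ha1, a collagen prolyl hydroxylase subunit, fell by 0.29 ± 0.08 on the log2 scale (limma adjusted p = 0.00989). Bnip3l and Kdm3a, the most abundant of the list, had log2 changes of 0.05 ± 0.12 and −0.14 ± 0.08.

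Known HIF-1 targets differed in direction. The bases upstream of start sites are shown for Pdk1, which fell, and for Slc16a3 and Hk2, which rose. They are also shown for Ldha, which was not called in the fit of all libraries on group alone. The core letters of the HIF-1 element are ACGTG or GCGTG, searched on both strands and shown in capitals. A CACGTG, the E-box, counts as a match on each strand. Windows hold the 250 bases before an annotated start, from RefSeq on build GRCm38.p6, printed 5′ to 3′ on the strand of the gene.
Pdk1, chr2:71872974-71873223, plus strand: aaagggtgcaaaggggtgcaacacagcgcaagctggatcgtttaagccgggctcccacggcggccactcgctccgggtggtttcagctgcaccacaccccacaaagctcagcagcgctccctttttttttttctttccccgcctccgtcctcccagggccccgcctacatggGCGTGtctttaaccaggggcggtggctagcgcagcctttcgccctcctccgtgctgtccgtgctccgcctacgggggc
Slc16a3, chr11:120948817-120949066, plus strand: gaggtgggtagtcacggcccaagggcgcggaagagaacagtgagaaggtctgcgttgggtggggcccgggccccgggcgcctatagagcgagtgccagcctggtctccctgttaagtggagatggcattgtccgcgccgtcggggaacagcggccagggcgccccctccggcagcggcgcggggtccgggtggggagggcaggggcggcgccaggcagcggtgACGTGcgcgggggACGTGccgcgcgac
Hk2, chr6:82774455-82774704, minus strand: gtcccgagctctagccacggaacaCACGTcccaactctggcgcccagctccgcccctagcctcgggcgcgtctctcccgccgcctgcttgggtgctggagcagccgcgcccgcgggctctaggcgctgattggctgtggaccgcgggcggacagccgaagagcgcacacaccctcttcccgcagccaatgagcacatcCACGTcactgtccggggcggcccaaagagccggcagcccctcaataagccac
Ldha, chr7:46845554-46845803, plus strand: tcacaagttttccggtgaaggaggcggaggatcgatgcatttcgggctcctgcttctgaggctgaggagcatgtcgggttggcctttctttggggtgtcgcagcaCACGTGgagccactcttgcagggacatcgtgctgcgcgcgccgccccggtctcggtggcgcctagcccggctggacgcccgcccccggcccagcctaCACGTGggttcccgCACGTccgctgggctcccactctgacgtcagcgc

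The window of Pdk1 held 1 match, those of Slc16a3 and Hk2 held 2 each, and that of Ldha held 5, which include both strands of 2 E-boxes. Pdk1 and Ldha each have a second annotated start, whose windows held 0 and 1, and the windows of Hk1 held 0 and 3. The window of Slc2a1 held 2 matches and those of Eno3 and Ldhb 1 each. Of 32817 promoter windows of this length, 38.6% held at least 1 match and 6.02% held a CACGTG. Matches were present before starts of genes called higher, called lower and not called in the fit of all libraries on group alone. Whether a match has a part in any of these changes was not tested. Of the 10 listed members, 9 had an entry in the promoter table, and Slc2a3 had none.

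The genes whose levels most resembled those of Pdk1 were sought among 8034 other named genes with a mean of at least 50 normalized counts, by Pearson's r of log2(normalized count + 1) over the 10 libraries. The closest were Galnt6, Il6ra, Pydc3, Dgkd and Foxp1, with r of 0.994, 0.994, 0.994, 0.993 and 0.993 and log2 changes of −0.64, −1.25, −0.74, −0.78 and −0.62. These values are descriptions, and they mostly carry the difference between the groups. Over the 10 deviations from the group means, which leave that difference out, the closest were Patl1, Tada2a, Ncoa7, Exosc8 and Ranbp2, with r of 0.910, 0.887, 0.886, 0.881 and 0.873. Slc2a1, the other member called lower, had r = 0.81 with Pdk1 over the libraries and −0.62 over the deviations.

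Several members had an extreme value in the same replicate number in both groups. Slc2a1, Hk1, Ldha and Ldhb had their highest value in replicate 3 in both groups, while Pdk1 had its lowest value there in both. Slc2a1 had its lowest value in replicate 1 in both groups. Other members went opposite ways in replicate 3, where Hk2 was highest among Helios− and lowest among Helios+ libraries and Slc16a3 the reverse. Rn45s also held its largest share of reads in replicate 3 of each group (18.6% in Helios− and 13.8% in Helios+). Any link of that share to these values was not tested. Log2 differences within pairs ran from 0.09 to 0.41 for Hk1 and from 0.57 to 1.13 for Ldhb. For Hk2 they ran from −0.35 in replicate 3 to 1.57 in replicate 2. The fit with the replicate block called 5 of the 9 members higher and 3 lower with limma, the additions being Hk1 and Ldha, against 37.3% of all genes called in either direction. Slc2a3 had an adjusted p of 0.0617 in that fit.

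**Figure D4:**
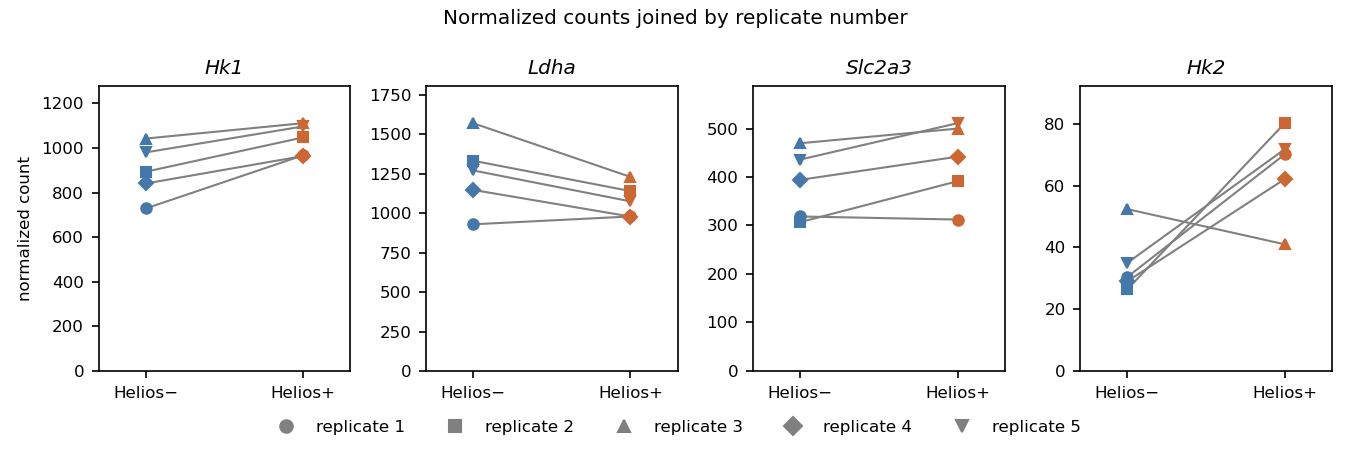
Normalized counts (vertical axes, linear from 0) of Hk1, Ldha, Slc2a3 and Hk2, with a line joining the Helios− and Helios+ library of equal replicate number. The lines rise for Hk1 in all 5 pairs, fall for Ldha in 4 of 5 and rise for Hk2 in 4 of 5, with replicate 3 falling.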

How the data were processed

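Total RNA of 10 sorted Treg samples was sequenced after stranded SMARTer pico library preparation, per the labels' protocols. Per the submitters' processing notes, DESeq2, HTSeq, HISAT2 (version 2.0.4) and build mm10 were used, in roles not stated. The sources used here do not give the annotation, strand setting or gene filter. The authors deposited normalized counts, a signal of read counts divided by 1 size factor per library: 100% of values were whole multiples of the library's smallest value above 0 (tolerance 0.001), which recovered reads. Genes with a mean of at least 10 (10718 of 13252) were tested on log2(normalized count + 1) with limma version 3.58.1 (R version 4.3.3, trend and robust, group as the only term, Benjamini-Hochberg over all genes, called under 0.05). SEs and 95% intervals are limma's.

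Ratios of related genes used log2 with a pseudocount of 1 and exact permutation of the group labels. Of 6 ratios planned, 5 were computed, since Eno1 is not analysed here. Libraries of equal replicate number deviated together (correlations of 0.15 to 0.48 across genes, above the minimum of 0.1 in all 5 pairs). Numbers were therefore taken as pairs in the replicate block, the sign flips and the differences within pairs. The fit on group alone, which gave the calls unless stated otherwise, and the permutations of the ratios did not use them. Libraries of unequal number had a median correlation of −0.03 and a highest of 0.117, which is also above that minimum. Alternatives were the replicate block, edgeR (version 4.0.16; 1563 genes called higher and 1080 lower) and DESeq2 (version 1.42.0) on recovered reads, TMM scaling, quantile normalization, other filters and pseudocounts, and leaving out each library. The script was tested on simulated data. Positions and exon lengths are from GENCODE M21 (GRCm38, the same assembly as mm10). Symbols were matched directly or by older symbols. The members and lists were chosen with earlier results of these data known. Beyond the members, Slc16a1 and Pdk3, text names per list up to 4 called genes with the smallest p and the 2 most abundant. Total RNA reads of overlapping or near-identical genes may have been counted together.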

Additional observations from a re-analysis of the deposited data

Results flagged for a closer look

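In 32 groups of 5 libraries checked for a library far from the rest, of which chance flags about 1 in 20, 2 were marked. Eno3 in Helios− replicate 1 had 60.9 normalized counts, where the other Helios− libraries had 36.0 to 41.0. The ratio of Hk1 to Hk2 normalized counts in Helios+ replicate 3 was 27.1, where the other Helios+ libraries had 13.0 to 15.5.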

How the results depend on the processing

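Among the 9 members, limma called 4 higher and 2 lower with TMM scaling, without a filter and with a pseudocount of 5. The tests of edgeR and DESeq2 on recovered reads gave the same counts. Over all genes these settings called 1521 to 1803 higher and 1052 to 1252 lower. Quantile normalization called 5 higher, against 1376 of all 10718 genes tested. A mean of at least 50 called 2 of 7 higher, against 1081 of 8497 genes, since Hk2 and Slc16a3 were then not tested. Without single libraries the counts were 4 to 5 higher and 2 to 3 lower. Over all genes the counts were 1314 to 1632 higher and 929 to 1293 lower without single libraries, and 1979 were lower with the replicate block. Of the 95 pathway genes other than members tested, 8 were called higher and 6 lower, against 14.1% and 10.7% of all genes tested. The counts were 10 lower with the replicate block and 10 lower with quantile normalization, where 1979 and 1357 of all 10718 genes were lower. They were 6 to 11 higher and 4 to 8 lower without single libraries.

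In a test of the replicate block, flipping signs within the 5 pairs, the smallest exact p is 0.0625, so no ratio could be called. The differences stayed at 0.65 for Slc2a3 over Slc2a1, 1.04 for Ldhb over Ldha, 1.64 for Slc16a3 over Slc16a1, −1.80 for Pdk1 over Pdk3 and −0.68 for Hk1 over Hk2 (exact p = 0.125 for the last and 0.0625 for the others). The same holds for Ikzf2, at 4.42. Without single libraries the log2 ratio differences were 0.57 to 0.73, 1.01 to 1.07, 1.39 to 1.82, −1.86 to −1.74 and −0.86 to −0.59 in the same order. The limit of depth is at Slc16a3 and Eno2, with a few reads per Helios− library.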
